A study of Mus musculus with 6 samples.

Results

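The 9 genes described here make, store, recapture or break down the catecholamines dopamine and noradrenaline: Th, Gch1, Ddc, Dbh, Slc18a1, Slc18a2, Slc6a2, Maoa and Maob. They are 9 of the 54532 genes in the deposited table, taken by name. They were chosen by their FPKM in these same 6 libraries, since the differences between the groups were already known. Their differences between the groups are therefore given as a description, with no p, and where they are counted against a threshold nothing is read from the count. RNA was sequenced in 6 libraries from N2a (Neuro2A) cells, a mouse neuroblastoma line. The labels give the strain as C57BL/6 for all 6 libraries and a growth medium of MEM with fetal bovine serum. In 3 libraries the cells had received si-NC, the control siRNA, and in 3 they had received si-circRtn4, an siRNA against the circular RNA made from the reticulon gene Rtn4. The study's general transfection methods, by contrast, have N2a cells moved to a differentiation medium with retinoic acid after transfection and before harvest. The study asked which mRNAs change when circRtn4 is silenced. Nothing says whether libraries of a group came from separate transfections, so the spread between replicates may be technical.

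Catecholamines are made from tyrosine in a fixed order. Tyrosine hydroxylase (Th) makes L-DOPA with the cofactor tetrahydrobiopterin, whose synthesis starts with GTP cyclohydrolase 1 (Gch1). Dopa decarboxylase (Ddc) turns L-DOPA into dopamine, a vesicular monoamine transporter (Slc18a1 or Slc18a2) carries dopamine into storage vesicles, and dopamine beta-hydroxylase (Dbh) inside the vesicle converts it to noradrenaline. Released noradrenaline is taken back by the noradrenaline transporter (Slc6a2) and oxidised by the monoamine oxidases (Maoa and Maob). Neuroblastoma arises from the sympathetic lineage, and its tumours are known for catecholamine production.

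The expression unit was FPKM, sequenced fragments scaled to gene length and library size, as the authors deposited it. In every library the values, once multiplied by length and divided by a step particular to that library, fell on whole numbers of reads, which totalled 14100818 to 14748929 in si-NC and 13541198 to 15122063 in si-circRtn4. The circle itself has no row in the gene table, so its loss was not checked here. By qRT-PCR, the study reported efficient loss of circRtn4 in N2a cells after siRNA transfection, with no significant change of linear Rtn4 mRNA. The Rtn4 gene, whose row does not separate linear from circular transcripts, was at 61.0, 66.8 and 69.8 FPKM in si-NC and at 50.1, 56.7 and 62.7 FPKM in si-circRtn4, with overlapping groups. All 10 sympathoblast markers (such as Hand2, Isl1 and Stmn2) averaged 1 FPKM or more.

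The small RNAs of the study are shown first, because their seed sites were searched for in the 3′ UTRs of the 9 genes. Capitals mark bases 2 to 8 (the seed) of the strand that can pair with an mRNA. The siRNA comes from the study's siRNA list, the reverse complement of the listed strand was assumed to be the guide, and mature miR-24-3p, the microRNA that the study tied to circRtn4, comes from RefSeq.
si-circRtn4 as listed: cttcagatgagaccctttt
si-circRtn4 guide strand: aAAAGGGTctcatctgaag
miR-24-3p: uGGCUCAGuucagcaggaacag

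A match to the guide seed reads ACCCTTT in an mRNA, and a match to the miR-24-3p seed reads CTGAGCC. Using the longest 3′ UTR annotated per gene, neither sequence was found in Th, Gch1, Ddc, Dbh, Slc18a1, Slc18a2, Maoa or Maob. The 3′ UTR of Slc6a2 (4018 bases) held 1 of each, which are printed below with the 7 matching bases in capitals. The guide match lies at chr8:93000065-93000071 and the miR-24-3p match at chr8:92998165-92998171 on the plus strand of GRCm38.
Slc6a2, guide match: gacaagtcACCCTTTgaatagtg
Slc6a2, miR-24-3p match: tccagcatCTGAGCCtctgtttg

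Slc6a2 had no read in any library, so the only member with either match was not measurable. Of 10692 tested genes with an annotated 3′ UTR, 13.1% held the guide match and 21.6% the miR-24-3p match, with a median UTR length of 1349 bases. The 3′ UTR of Dbh is short beside that median, at 400 bases, and that of Slc18a2 is 2096 bases. The absence of a match says only that these letters are not in these windows.

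Of the synthesis enzymes, Th and Dbh were lower in si-circRtn4, Gch1 was slightly higher, and Ddc overlapped between the groups. Of the vesicle transporters, Slc18a2 was lower and the scarce Slc18a1 overlapped. The reuptake transporter and both monoamine oxidases were at or near 0 in all libraries. The fold of si-NC over si-circRtn4 was 9.94 for Dbh, 3.57 for Th and 2.43 for Slc18a2, as ratios of the mean FPKM. In bulk RNA, fewer cells that express a gene and less RNA of it per cell cannot be told apart.

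**Figure D1:**
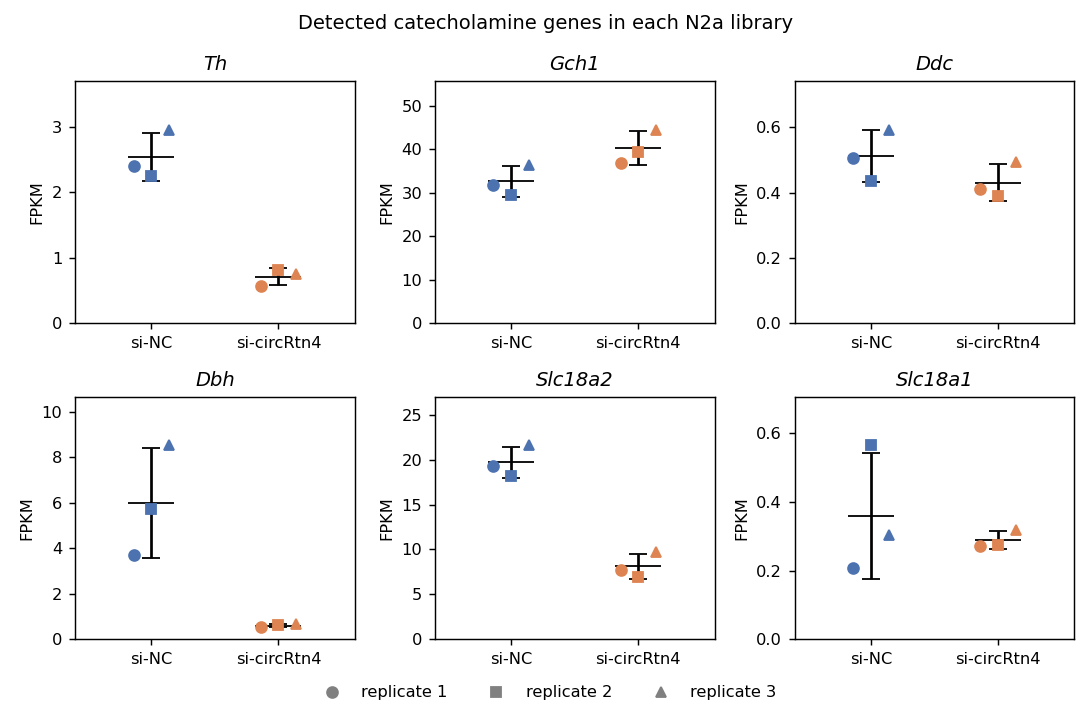
FPKM (vertical axes, from 0) of the 6 detected genes in each library, with si-NC in blue and si-circRtn4 in orange. Points are single libraries with the replicate number as the symbol, and the bar and whiskers are the mean and SD of 3 libraries. The groups are apart for Th, Dbh, Slc18a2 and Gch1 and overlap for Ddc and Slc18a1.

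Th (ENSMUSG00000000214), the rate-limiting enzyme of the pathway, is a minus-strand gene of chromosome 7 (142892752 to 142931128, GRCm38). Its FPKM values were 2.41, 2.26 and 2.96 in si-NC replicates 1 to 3 and 0.565, 0.815 and 0.756 in si-circRtn4 replicates 1 to 3. Every si-circRtn4 library was below every si-NC library. The mean went from 2.54 ± 0.370 to 0.712 ± 0.131 FPKM (SD, n = 3 each), which left 28.0% of the si-NC mean. On the log2(FPKM + 1) scale, which understates the change of low genes, the difference was -1.05 with a standard error of 0.14. The values rest on 77 to 98 reads per si-NC library and 19 to 30 reads per si-circRtn4 library. The 95% exact Poisson interval, which covers counting error only, ran from 0.340 to 0.882 FPKM in si-circRtn4 replicate 1 and from 1.78 to 2.82 FPKM in si-NC replicate 2. The lowest si-NC library and the highest si-circRtn4 library (0.550 to 1.16 FPKM) thus did not meet within counting error.

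Gch1 (ENSMUSG00000037580), on chromosome 14 (47153895 to 47189413, minus strand), was the most abundant of the 9 genes. Its FPKM was 31.8, 29.6 and 36.5 in si-NC and 36.9, 39.4 and 44.5 in si-circRtn4. The groups were apart by a narrow margin, with the lowest si-circRtn4 library just above the highest si-NC library. The means were 32.6 ± 3.52 and 40.3 ± 3.88 FPKM (SD, n = 3 each), 1.24-fold higher in si-circRtn4, and the log2 difference was 0.30 with a standard error of 0.10. In pairs of libraries with the same replicate number, si-circRtn4 was higher by 1.16, 1.33 and 1.22-fold. The log2 difference was 0.33 on recovered reads and 0.39 when each library was scaled to the same FPKM sum.

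Ddc (ENSMUSG00000020182), on chromosome 11 (11814101 to 11898144, minus strand), also serves serotonin synthesis. It was low in all libraries, at 0.505, 0.435 and 0.593 FPKM in si-NC and 0.410, 0.389 and 0.493 FPKM in si-circRtn4. The groups overlapped, and the means of 0.511 ± 0.0788 and 0.431 ± 0.0553 FPKM (SD, n = 3 each) differed by about their spread. By replicate number the si-NC library was above the si-circRtn4 library in all 3 pairs, by 1.23, 1.12 and 1.20-fold. These pairs were 34 against 26, 28 against 27 and 37 against 32 reads. Their 95% exact Poisson intervals overlapped in each pair, so the differences are within counting error. With 26 to 37 reads per library, Ddc was under the minimum mean of 1 FPKM and was not in the fit.

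Dbh (ENSMUSG00000000889), the enzyme that sets noradrenergic cells apart from dopaminergic ones, is a plus-strand gene of chromosome 2 (27165233 to 27183200). Its FPKM was 3.72, 5.72 and 8.52 in si-NC and 0.522, 0.621 and 0.664 in si-circRtn4. Every si-circRtn4 library was far below the lowest si-NC library. The mean went from 5.99 ± 2.41 to 0.602 ± 0.0728 FPKM (SD, n = 3 each), or 10.1% of the si-NC mean, with a log2 difference of -2.07 and a standard error of 0.23. By replicate number the si-NC library exceeded the si-circRtn4 library by 7.12, 9.22 and 12.8-fold. Reads on Dbh numbered 151, 222 and 321 in si-NC and 20, 26 and 26 in si-circRtn4.

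The si-NC libraries themselves differed in Dbh beyond counting error. The 95% exact Poisson intervals of si-NC replicates 1 and 3 ran from 3.15 to 4.36 FPKM and from 7.61 to 9.51 FPKM, so they did not meet. The coefficient of variation of Dbh was 40.3% over the si-NC libraries, and only 24 of 4409 protein-coding genes with a si-NC mean of 3 to 12 FPKM had a higher one. The median of those genes was 8.75%. In si-circRtn4 the coefficient of variation of Dbh was 12.1%. Th did not share this spread, and the ratio of Dbh to Th was 1.54, 2.53 and 2.88 in si-NC against 0.924, 0.761 and 0.878 in si-circRtn4. Per length, Dbh was thus above Th in every si-NC library and below it in every si-circRtn4 library. In si-circRtn4 this order rests on 20 to 26 reads of Dbh and 19 to 30 reads of Th. Their Poisson intervals overlapped in each si-circRtn4 library, so the order there is within counting error.

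Slc18a2 (ENSMUSG00000025094) encodes the vesicular monoamine transporter of neurons, VMAT2. The gene is on chromosome 19 (59260878 to 59296012, plus strand). Its FPKM was 19.3, 18.2 and 21.6 in si-NC and 7.67, 6.96 and 9.69 in si-circRtn4. The groups were well apart, with means of 19.7 ± 1.73 and 8.11 ± 1.42 FPKM (SD, n = 3 each), or 41.2% of si-NC. The log2 difference was -1.19 with a standard error of 0.12, and the folds by replicate number were 2.52, 2.61 and 2.23. Between 412 and 1149 reads per library stood behind these values. The opposite-strand gene Gm29261 shares 111 exon bases with Slc18a2, but its mean was 0.0346 FPKM. Whether reads were counted by strand is not given in the sources used here.

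Slc18a1 (ENSMUSG00000036330) encodes VMAT1, the transporter best known from chromaffin and other endocrine cells. The gene is on chromosome 8 (69037711 to 69089235, minus strand). Its FPKM was 0.209, 0.565 and 0.304 in si-NC and 0.273, 0.274 and 0.318 in si-circRtn4. The groups overlapped, and the highest and lowest of the 6 values were both in si-NC. The means were 0.359 ± 0.184 and 0.288 ± 0.0259 FPKM (SD, n = 3 each). The log2 difference of -0.069 became 0.037 without si-NC replicate 2, which had 44 reads where the other libraries had 17 to 25. Slc18a2 exceeded Slc18a1 by 32.2 to 92.6-fold in si-NC and by 25.4 to 30.4-fold in si-circRtn4, so VMAT2 remained the main transporter mRNA in all 6 libraries.

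Of the 9 genes, those for recapture and oxidation were barely represented. Slc6a2 (plus strand of chromosome 8, 92960079 to 93001667) had 0 reads in all 6 libraries, where 3 reads would have given 0.0306 to 0.0341 FPKM. Maob (minus strand of chromosome X, 16709282 to 16817366) also had 0 reads, with a limit of 0.0691 to 0.0769 FPKM. Maoa (plus strand of chromosome X, 16619698 to 16687818) had 1 read, in si-NC replicate 2, against a limit of 0.0463 to 0.0514 FPKM for 3 reads. No fold can be given for these 3 genes, and a change in them was not detectable at this depth. The dopamine transporter Slc6a3 and the serotonin transporter Slc6a4 were no higher than 0.0407 and 0.0585 FPKM in any library, and Pnmt, which turns noradrenaline into adrenaline, reached 0.122 FPKM at most.

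The 9 genes spanned a wide range of levels. Among 22046 protein-coding genes ordered by mean FPKM in si-NC, Gch1 stood at rank 1554, Slc18a2 at 2849, Dbh at 7154, Th at 9362, Ddc at 11445 and Slc18a1 at 11800. In si-circRtn4, Gch1 stood at rank 1146, Slc18a2 at 6010, Th at 11115, Dbh at 11279, Ddc at 11617 and Slc18a1 at 11989. Dbh and Th exchanged places in this order. Their si-circRtn4 FPKM ranges met (0.522 to 0.664 for Dbh and 0.565 to 0.815 for Th), so these neighbours did not differ beyond their spread. All other neighbours among these 6 genes had FPKM ranges apart in both groups, except Ddc with Slc18a1 in si-NC. The Poisson intervals of Dbh and Ddc nevertheless overlapped in each si-circRtn4 library, as did those of Ddc and Slc18a1. In any single si-circRtn4 library these 2 orders are thus within counting error.

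Summed over the 9 genes, FPKM was 56.8 to 70.4 in si-NC and 46.4 to 56.4 in si-circRtn4. Gch1 alone made up 54.9, 52.1 and 51.8% of that sum in si-NC and 79.6, 81.3 and 78.9% in si-circRtn4. The ratio of Gch1, the cofactor enzyme, to Th, which uses the cofactor, was steady within si-NC at 13.2, 13.1 and 12.3. In si-circRtn4 it was 65.3, 48.3 and 58.9. The ratio of Ddc to Th likewise went from 0.210, 0.193 and 0.200 to 0.725, 0.477 and 0.652, and in no library was Ddc above Th. In si-circRtn4 the Poisson intervals of Ddc and Th overlapped in each library. The ratio of Slc18a2 to Th went from 8.02, 8.06 and 7.29 to 13.6, 8.54 and 12.8.

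Across all genes, limma on log2(FPKM + 1) tested the 12749 genes that averaged 1 FPKM or more, and a gene was past the threshold at a Benjamini-Hochberg adjusted p under 0.05. Of these, 4.82% were lower and 4.36% were higher in si-circRtn4. Only 4 of the 9 catecholamine genes reached the minimum, and of these Th, Dbh and Slc18a2 were past the threshold as lower and 0 as higher. Groups did not overlap, lower, for 3 of the 4 (15.5% of all genes tested) and, higher, for 1 of the 4 (16.2%). Since the genes were chosen with this contrast known, nothing is read from these shares.

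Proximal promoters were compared because Th, Dbh and Slc18a2 were lower together. RefSeq promoter windows of GRCm38.p6, 250 bases before to 50 bases after a start site, were found for 6 of the 9 genes (Dbh, Th, Ddc, Gch1, Slc18a2 and Maoa). The cAMP response element TGACGTCA, searched on both strands, was present in the windows of Th and Slc18a2. It was absent from those of Dbh, Ddc, Gch1 and Maoa, and 1.79% of 32851 promoter windows held it. The matches are printed with the element in capitals, at chr7:142900033-142900040 on the minus strand, starting 45 bases before the start site of Th, and at chr19:59260874-59260881 on the plus strand, starting 4 bases before that of Slc18a2.
Th: agaggggcttTGACGTCAgcctggcctt
Slc18a2: gcgctgtccgTGACGTCAgagccggact

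The AP-1 sequence TGANTCA was found in Th and Ddc (7.81% of windows). The GATA sequence AGATAA and the E-box CAGCTG were found in Slc18a2 (11.2% and 16.3% of windows), and the GC box GGGCGG in Th, Gch1, Slc18a2 and Maoa (35.7%). The homeodomain core TAATTA was in 0 of the 6 genes and in 5.29% of windows. Dbh, the gene with the largest fold, had 0 of these 6 motifs in its window. Both strands were searched for each motif, and no motif contains another. A match is a description of letters and not a bound site.

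The profile of Dbh over the 6 libraries was compared with every tested protein-coding gene by the root mean square difference of centred log2(FPKM + 1). The 5 nearest were Neurl3, an E3 ubiquitin ligase gene (0.262), Madcam1, an adhesion molecule gene (0.310), Chgb, the chromogranin B gene of dense core vesicles (0.325), Adcyap1r1, the receptor gene for the peptide PACAP (0.343), and Lrrn4, a leucine-rich repeat gene (0.378). Their log2 differences were -2.03, -1.62, -1.86, -1.80 and -1.69 beside -2.07 for Dbh. They were picked for this pattern, so these differences carry no test. Slc18a2 stood at place 30 (0.518) and Th at place 38 (0.563), while Gch1 stood at place 9435 (1.21). Of the 5 nearest genes, Chgb held a cAMP response element in its promoter window and the other 4 did not. In their 3′ UTRs, Neurl3 held 1 guide match, and Adcyap1r1 (4280 bases) held 1 guide match and 2 miR-24-3p matches. Madcam1, Chgb and Lrrn4 held 0 of either. Among tested genes with an annotated 3′ UTR, 13.1% held the guide match and 21.6% the miR-24-3p match.

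**Figure D2:**
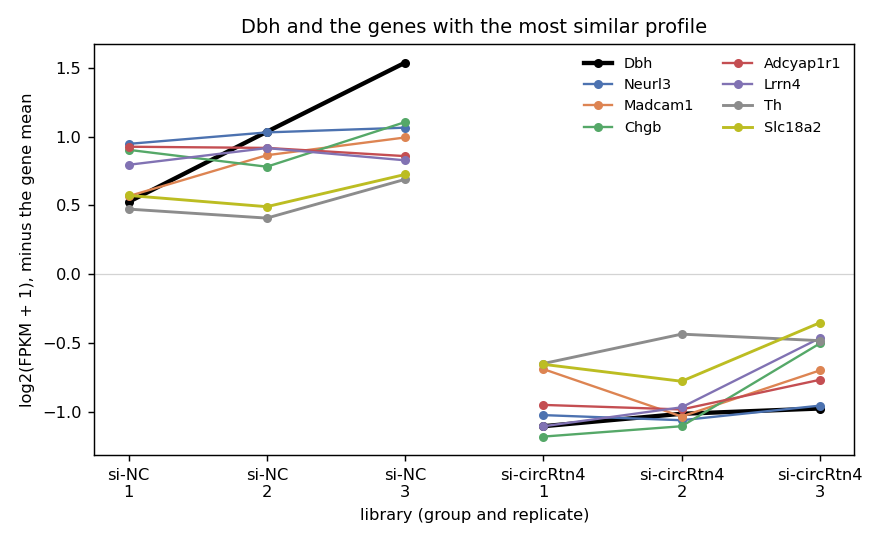
log2(FPKM + 1) minus the mean of the gene (vertical axis) in each library (horizontal axis, group and replicate) for Dbh, its 5 nearest genes, Th and Slc18a2. Lines join libraries of 1 group and show no order in time. All lines are above 0 in si-NC and below 0 in si-circRtn4, and Dbh has the widest spread within si-NC.

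Other genes that serve these enzymes were read from 5 lists with 41 genes, of which 28 were tested. Of these 28, 4 were lower (4.82% of all genes tested were) and 2 were higher (4.36%), at limma adjusted p under 0.05. Their median log2 difference was -0.0017, beside 0.0020 over all genes tested. The 4 lower genes were Pcbd1, Cyb561, Pam and Akr1b3, and the 2 higher were Adh5 and Slc29a4. These lists and those of the following paragraphs were chosen with earlier results of these data known. Their calls and adjusted p values are therefore no independent support, and nothing is read from the counts. The same shares over all genes tested, 4.82% lower and 4.36% higher, stand beside each list count below.

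Of the 7 pterin cofactor genes, which make and recycle tetrahydrobiopterin, all 7 were tested and 1 was lower. Pcbd1, the dehydratase that returns the cofactor after each hydroxylation, was at 103, 96.2 and 107 FPKM in si-NC and 62.1, 64.8 and 65.2 FPKM in si-circRtn4. It fell by 0.66 on the log2 scale (SE 0.073, limma adjusted p = 0.00326), lower in all 3 libraries. Pts, Spr, Qdpr, Pcbd2 and Gchfr did not pass, with log2 differences of -0.044 to 0.18, and the median of the list was 0.11. Gchfr, the feedback regulator of the Gch1 enzyme, was at 0.18 (limma adjusted p = 0.305).

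Of the 9 genes for copper, ascorbate and pyridoxal supply, which feed the Dbh and Ddc enzymes, 8 were tested and 1 was lower. Cyb561, the vesicle cytochrome that keeps ascorbate reduced for Dbh, was at 35.9, 36.0 and 36.9 FPKM in si-NC and 21.2, 20.5 and 20.7 FPKM in si-circRtn4. It fell by 0.77 on the log2 scale (SE 0.063, limma adjusted p = 0.00139), and the replicates of each group lay close together. The copper pump gene Atp7a was at -0.37 and did not pass (limma adjusted p = 0.108). The median of the list was -0.16.

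Of the 7 other hydroxylases and converting enzymes, 2 were tested. Pam, which amidates peptides with copper and ascorbate, fell by 0.48 (SE 0.096, limma adjusted p = 0.0236). Its call did not hold without si-NC replicate 2 (adjusted p = 0.0763) or 3 (0.0750) and without si-circRtn4 replicate 1 (0.0731) or 2 (0.0811). Tph2, the neuronal tryptophan hydroxylase, was at 0.15 and did not pass (limma adjusted p = 0.422). Tph1, the other tryptophan hydroxylase, had a mean of 0.936 FPKM and missed the minimum, and it is named after its values were seen. It was at 1.48, 1.76 and 1.69 FPKM in si-NC and 0.137, 0.156 and 0.390 FPKM in si-circRtn4, and in the fit of all genes above 0 it fell by 1.11 on the log2 scale (SE 0.13, limma adjusted p = 0.0199).

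Of the 10 other breakdown enzymes, 8 were tested, 1 was lower and 1 was higher. Akr1b3, an aldose reductase, fell by 0.52 (SE 0.10, limma adjusted p = 0.0213) and Adh5, an alcohol dehydrogenase, rose by 0.42 (SE 0.082, limma adjusted p = 0.0221). Akr1b3 lost the call without si-NC replicate 2 (adjusted p = 0.0830) or 3 (0.0571) and without si-circRtn4 replicate 1 (0.0655) or 3 (0.0649). Adh5 lost it without si-NC replicate 1 (adjusted p = 0.0546) or 2 (0.0910) and without si-circRtn4 replicate 2 (0.0735) or 3 (0.0690). Akr1a1 was at -0.31 and passed with the replicate number as a block (limma adjusted p = 0.0525 without and 0.0305 with it).

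Of the 8 other monoamine transporters, 3 were tested. Slc29a4, a low-affinity plasma membrane monoamine transporter, was at 28.1, 22.4 and 23.7 FPKM in si-NC and 32.6, 30.8 and 34.8 FPKM in si-circRtn4. It rose by 0.40 (SE 0.10, limma adjusted p = 0.0488), at the edge of the threshold, and lost the call without any 1 of 5 libraries (adjusted p = 0.158 and 0.131 when si-NC replicate 2 or 3 was left out, and 0.115, 0.0929 and 0.131 when si-circRtn4 replicate 1, 2 or 3 was). Slc7a5 and Slc3a2, which together carry large amino acids such as tyrosine and L-DOPA, were at 0.25 and 0.085 and did not pass.

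**Figure D3:**
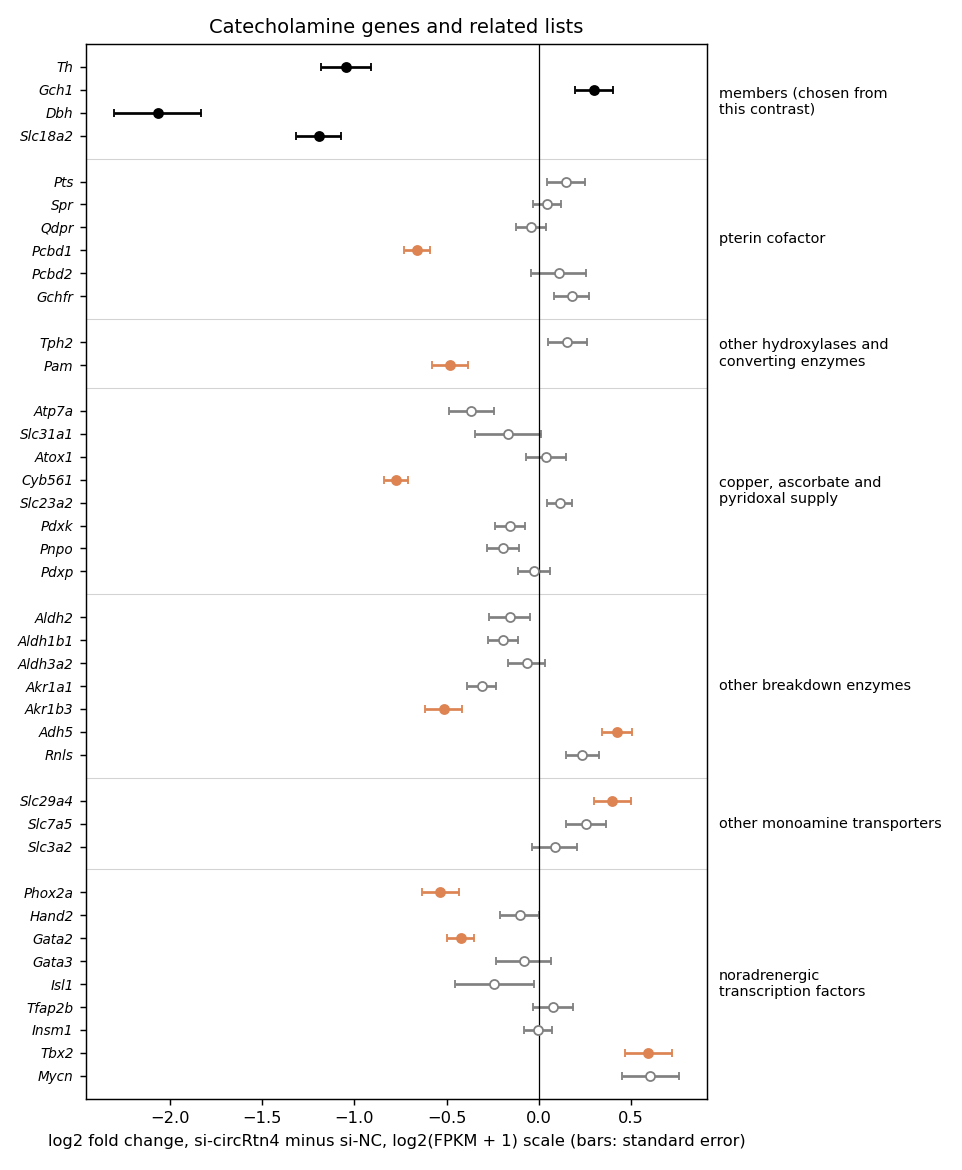
Log2 fold change of si-circRtn4 against si-NC on the log2(FPKM + 1) scale (horizontal axis, bars are the standard error) for the 4 tested catecholamine genes in black and tested genes of 6 related lists. Filled orange points passed limma's adjusted p under 0.05 and open grey points did not. Dbh, Slc18a2 and Th lie at -2.07, -1.19 and -1.05, below every other gene shown.

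Receptors for catecholamines were scarce, and 1 of 14 averaged 1 FPKM or more. Adra2b, an alpha2 adrenergic receptor, was at 2.15, 1.36 and 1.67 FPKM in si-NC and 1.12, 0.384 and 0.651 FPKM in si-circRtn4. Its log2 difference was -0.68 (SE 0.20), which did not pass in limma (adjusted p = 0.0748). It passed with the replicate number as a block (limma adjusted p = 0.0227) and with limma-voom on the recovered reads. Adra1a, Adra1d, Adra2c, Adrb1 and Drd2 had 0 reads in all libraries.

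Transcription factors of the noradrenergic lineage were a list of 14 genes, of which 10 were tested, with a median log2 difference of -0.093. Of these 10, 2 were lower (4.82% of all genes tested were) and 1 was higher (4.36%). Phox2a, a homeodomain factor known to act on the Dbh promoter, was at 218, 213 and 206 FPKM in si-NC and 129, 147 and 166 FPKM in si-circRtn4. It fell by 0.53 (SE 0.10, limma adjusted p = 0.0210), and Gata2 fell by 0.42 (SE 0.072, limma adjusted p = 0.0144). Hand2 was at -0.10, Gata3 at -0.082 and Isl1 at -0.24, and none of these 3 passed. Tbx2 rose by 0.59 (SE 0.13, limma adjusted p = 0.0298). Mycn was at 0.60 and passed with the replicate number as a block (adjusted p = 0.00680) but not without it (adjusted p = 0.0527), which made the higher genes 2 with the block.

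The calls on these factors leaned on single libraries. Phox2a lost its call without si-NC replicate 1 (adjusted p = 0.0558), 2 (0.0763) or 3 (0.0571) or si-circRtn4 replicate 2 (0.0721). Gata2 lost it without si-NC replicate 2 (adjusted p = 0.0661) or si-circRtn4 replicate 1 (0.0503) or 2 (0.0572). Tbx2 lost it without si-NC replicate 2 (adjusted p = 0.0978) or 3 (0.0872) or si-circRtn4 replicate 1 (0.0655), 2 (0.0903) or 3 (0.0859).

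Markers of other cells and states were read from the same libraries. The 10 sympathoblast markers summed to 1284 to 1369 FPKM in si-NC and 822 to 1131 FPKM in si-circRtn4. Of these 10, 2 were lower (Phox2a and Chga, beside 4.82% of all genes tested) and 1 was higher (Elavl4, beside 4.36%). Elavl4 rose by 0.80 (SE 0.16, limma adjusted p = 0.0252). The largest part of the sum was Tubb3, at 442, 601 and 572 FPKM in si-NC and 308, 475 and 516 FPKM in si-circRtn4. Tubb3 overlapped between the groups and did not pass (limma adjusted p = 0.361). The sum therefore does not speak for each marker. Chga, chromogranin A of catecholamine storage vesicles, was at 279, 247 and 238 FPKM in si-NC and 78.7, 86.4 and 90.6 FPKM in si-circRtn4 (log2 difference -1.57, SE 0.093, limma adjusted p = 0.000641). Elavl4 lost its call without si-NC replicate 2 (adjusted p = 0.0589) or si-circRtn4 replicate 1 (0.0514), 2 (0.0721) or 3 (0.0676), and with the block Mycn joined it as higher.

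Of the 5 cholinergic markers, 1 was tested. Ache, acetylcholinesterase, fell from 20.3, 15.2 and 16.0 FPKM to 8.07, 6.85 and 7.69 FPKM (log2 difference -1.08, SE 0.12, limma adjusted p = 0.00324). Chat, which makes acetylcholine, had 5, 5 and 7 reads in si-NC and 0, 4 and 0 reads in si-circRtn4, and Lhx8 and Slc18a3 had 0 in all libraries. The list summed to 15.3 to 20.4 FPKM in si-NC and 6.91 to 8.07 FPKM in si-circRtn4, nearly all of it Ache, so the sum says nothing on the other cholinergic markers. Of 8 glutamatergic, GABAergic and serotonergic markers, 1 was tested and 0 passed, with sums of 0.984 to 1.41 FPKM and 1.26 to 2.54 FPKM. Of 8 glial and Schwann cell markers, 1 was tested and 0 passed, with sums of 5.05 to 5.77 FPKM and 3.67 to 5.55 FPKM and with Aqp4 and Foxd3 at 0. Of 7 blood cell markers, 0 were tested, and their sums were 0.437 to 1.32 FPKM and 0.682 to 1.24 FPKM.

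Of 8 mesenchymal markers, 1 was tested. Pdgfrb rose by 0.92 (SE 0.20, limma adjusted p = 0.0316), and the list summed to 1.77 to 3.27 FPKM in si-NC and 4.59 to 6.97 FPKM in si-circRtn4, with Prrx1 at 0. Its call did not hold without si-NC replicate 2 (adjusted p = 0.0881) or 3 (0.0799) or si-circRtn4 replicate 1 (0.0858), 2 (0.0709) or 3 (0.0585).

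Of 10 interferon response genes, 3 were tested. Isg15 rose from 6.05, 5.60 and 5.29 FPKM to 28.4, 37.4 and 10.7 FPKM (log2 difference 1.83, SE 0.38, limma adjusted p = 0.0282). Its call did not hold without si-NC replicate 1 (adjusted p = 0.0622), 2 (0.0821) or 3 (0.0748) or si-circRtn4 replicate 1 (0.0907) or 2 (0.0729). With the block, Bst2 (log2 difference -0.28) also passed, as lower (adjusted p = 0.0386). The list summed to 51.5 to 56.8 FPKM in si-NC and 46.6 to 82.7 FPKM in si-circRtn4, with overlapping ranges. Most of the si-NC sum was Bst2, at 47.9, 43.4 and 44.8 FPKM in si-NC and 39.2, 38.8 and 33.5 FPKM in si-circRtn4. The sum therefore hides the scarcer genes. Rsad2 was at 0.78 and did not pass (limma adjusted p = 0.187). Under the minimum mean of 1 FPKM, Ifit1 and Oasl2 were higher and Mx1 was lower without overlap of the groups. Reads on mitochondrial coding genes were 2.03 to 2.26% of all reads in si-NC and 1.50 to 1.87% in si-circRtn4. The part of the Pdgfrb, interferon and mitochondrial differences in the lower Th, Dbh and Slc18a2 was not tested.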

How the data were processed

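Whole-cell RNA was sequenced from 6 N2a libraries, 3 with si-NC and 3 with si-circRtn4, grouped and numbered by the sample labels. The authors deposited FPKM per gene, with length, biotype and coordinates. The submitters' processing notes name Bowtie 0.12.2 and the builds mm8 and mm9, but 98.1% of the 54532 genes listed had their GRCm38 coordinates of GENCODE M21, which are used here. The counting tool is not given in the sources used here. Another 6 columns belong to samples outside this comparison and were left alone. FPKM times length, divided by 1 step per library, was a whole number of reads for all values (tolerance 0.01 reads), and the reads on genes came to between 95.2 and 100.8% of the library size behind that step. 3′ UTR sequences came from GENCODE M21 and promoters and miR-24-3p from RefSeq.

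The members and lists were chosen with earlier results of these data known. The genes named are the 9 members, up to 4 genes of each list with the largest change past the threshold, and the 5 genes with a profile nearest to that of Dbh. Some listed genes are counted in their lists but not reported here by name. Other genes are named for their role in the pathway or in a list, and were chosen after their values were seen. limma 3.58.1 in R 4.3.3 (lmFit, eBayes with trend) was run on log2(FPKM + 1) for genes averaging 1 FPKM or more, unpaired, two-sided, with Benjamini-Hochberg adjustment over all 12749 genes tested. It was run first on simulated reads with a fixed fold change and no effect shared by replicate number. That simulation does not measure the error rate in these data. A two-sided exact permutation test of 3 against 3 libraries cannot go below 0.1, so none is given. Tables and figures were made in Python 3.11.15 with numpy 2.4.6, pandas 2.3.3, scipy 1.17.1 and matplotlib 3.10.9.

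Libraries with the same replicate number deviated together from their group means (correlations of 0.331, 0.190 and 0.226, against at most 0.00913 for different numbers), so the numbers were taken as pairs in an alternative fit that had them as a block. Deviations from a mean of 3 libraries sum to 0, so the correlations of different numbers are not independent of those of the same number. This pairing comes from the data, and the labels do not say what a number shares. The other alternatives were a pseudocount of 0.1, all genes above 0, limma-voom on the recovered reads, a common FPKM sum per library with and without the short RNA Gm23935, quantile normalization, and leaving out each library.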

Additional observations from a re-analysis of the deposited data

How the results depend on the processing

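The catecholamine genes were chosen on these values, so their ranges are a description. Over 13 alternatives the log2 difference of Slc18a2 ran from -1.31 to -1.10 and that of Gch1 from 0.22 to 0.39. Th, Dbh and Slc18a2 were past the threshold as lower in all of them. Gch1 was past it as higher with limma-voom, with the replicate block and with the same FPKM sum in each library only. The log2 differences of Th and Dbh were -1.71 and -3.04 with a pseudocount of 0.1 and -1.79 and -3.18 with limma-voom, which shrink low values less. That of Slc18a1 ranged from -0.15 to 0.037 when 1 library was left out and changed sign without si-NC replicate 2. Over all genes, 556 were higher and 615 lower. These counts were 210 and 261 with all genes above 0, 902 and 725 with limma-voom, 1185 and 1243 with the replicate block, and 977 and 400 with the same FPKM sum in each library, where 71.0% of calls were higher against 47.5%. Leaving out 1 library gave 163 to 407 higher and 217 to 419 lower genes, lowest without si-NC replicate 2. The related pathway genes, 2 higher and 4 lower, had 1 higher with a pseudocount of 0.1 and with quantile normalization, 0 with all genes above 0, and 0 to 1 higher and 2 to 4 lower with 1 library left out. Their lower genes numbered 6 with limma-voom, 5 each with the replicate block, without Gm23935 and with quantile normalization, and 3 with all genes above 0. Of 14 named genes of the other lists, 4 (Pcbd1, Cyb561, Ache and Chga) kept their call under every alternative and 10 lost it under at least 1. Outside the 9 catecholamine genes, the replicate block changed the call of Adra2b, Akr1a1, Mycn and Bst2 and of no other listed gene. Depth limits Ddc, Slc18a1, Slc6a2, Maoa and Maob, with at most 44 reads in a library.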
